A study of Mus musculus with 6 samples.

Results

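The teneurins (Tenm1, Tenm2, Tenm3 and Tenm4) and the FLRT proteins (Flrt1, Flrt2 and Flrt3) are transmembrane cell adhesion molecules, taken here as the 7 genes of those names among 18193 genes with a probe set of their own. All 18 probe sets annotated to exactly 1 of them were read, of 34945 such probe sets on the array. Transcripts were measured on Affymetrix mouse arrays in stromal cells cultured from bone marrow, with 3 arrays each of mesenchymal stem cells (MSC) and neural crest stem cells (NCSC). According to the labels, both came from adult females aged 10 weeks on a C57BL/6 x SV129 background that carried wnt1/CRE together with R26R-lacZ, and neither was treated. In such mice Cre under Wnt1 sequences switches on a lacZ reporter, which cells descended from the neural crest then keep. Clones were selected after 5 or more passages in Mesencult. Nothing in the labels ties a replicate to an animal or a clone, so p-values reflect only the spread between these arrays, which may be technical. Should each cell type be 1 clone, clone and cell type cannot be told apart. Members were picked with the difference between NCSC and MSC in view, so their levels and differences are given as a description, without a test.

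Teneurins are very large single-pass proteins that pair with each other and, on the facing cell, with latrophilins, which are adhesion G protein-coupled receptors. FLRT proteins carry a leucine-rich repeat domain outside the cell and bind the same latrophilins as well as the UNC5 netrin receptors. They also associate with FGF receptors inside the membrane of one cell. In the developing nervous system these contacts guide axons, steer migrating neurons and help to match synaptic partners.

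Values are GCRMA intensities taken to log2. On this scale the deposited values start at 2.12, the floor of the method, and a probe set was treated as above background over a limit of 4. Replicate arrays correlated at 0.985 to 0.997 across the tested genes. MSC 2 and NCSC 3 stood apart from the other replicates, with 2.62% to 2.69% of genes more than 2-fold from the other MSC arrays and 4.63% to 4.98% from the other NCSC arrays, against 0.409% and 0.438% within the remaining pairs. The 3' to 5' difference of the beta-actin control probe sets was 0.39 to 0.52 on all arrays. Of 8 neural crest markers 7 had a probe set, and 6 of these were above the limit on all NCSC arrays (Ednrb was at the floor on every array). The summed intensity of those markers was 187 to 322 in MSC and 27788 to 36376 in NCSC. Mesenchymal markers summed to 72745 to 78530 in MSC and 70727 to 79185 in NCSC, with 3 of the 6 tested called higher and 3 lower and Thy1 at the floor everywhere. All 6 endothelial markers were at the floor on all 6 arrays. So were the neuronal markers Snap25, Syt1 and Elavl3 and the blood cell markers Ptprc, Itgam, Cd3e and Cd79a. Other genes of the blood cell and neuronal lists were called. Cd68 (mean 2.77 in MSC and 8.80 in NCSC), Lyz2 and Fcer1g were higher in NCSC, while Csf1r was not called. Of the neuronal genes, Map2 and Tubb3 were higher in NCSC and Stmn2 was lower. The whole lists summed to 157 to 186 in MSC and 820 to 947 in NCSC for blood cells, 656 to 762 and 1721 to 1950 for neurons and 5098 to 5430 and 10975 to 14775 for Schwann cells. Osteoblast, adipocyte and chondrocyte markers summed to 11981 to 14305 in MSC and 33.3 to 45.8 in NCSC. In MSC only the adipocyte genes Fabp4 and Pparg were above the limit. The other 5 with a probe set, among them all osteoblast and chondrocyte genes read, were above it on no array. The part of these lists in the members' values was not tested. Because whole cultures were measured, a smaller share of expressing cells and less RNA per cell cannot be told apart.

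Of the teneurins and FLRT proteins, Tenm3 and Flrt3 had high intensities in NCSC and none above the limit in MSC. Flrt2 was instead bright in MSC and far dimmer in NCSC, where its brightest probe set stayed above the limit on all arrays. Tenm4 was dim and variable in both cell types. Tenm1, Tenm2 and Flrt1 stayed at or next to the floor on all 6 arrays. Of the 18 probe sets 8 passed the filter, which asked for 3 of 6 arrays above the limit, and these belonged to 4 of the 7 genes. A gene was represented by its brightest kept probe set, and 3 of these 4 genes were called in limma's fit at an adjusted p under 0.05, where 64.1% of all 10501 tested genes were called. The same 3 genes had groups that did not overlap, as 71.2% of all tested genes did. Since the members were chosen on this contrast, nothing is read from either count.

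**Figure D1:**
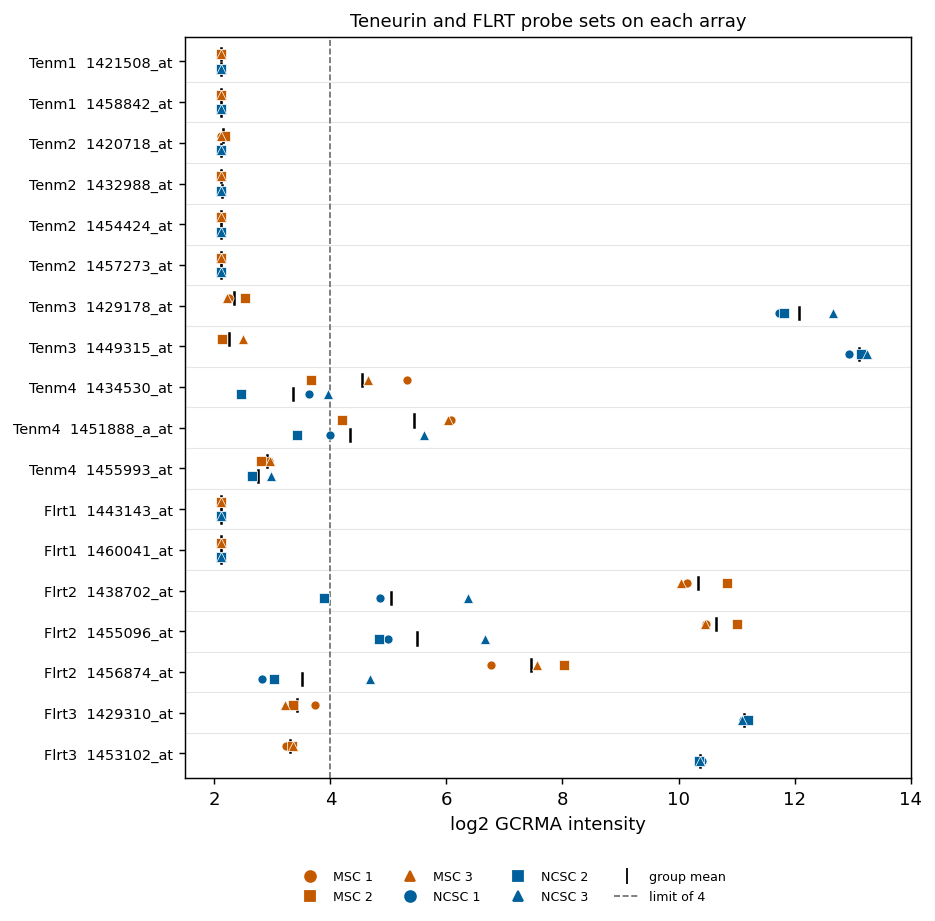
Log2 GCRMA intensity (horizontal axis) of all 18 teneurin and FLRT probe sets, with a marker for each of the 3 MSC arrays (orange) and 3 NCSC arrays (blue), a black bar at each group mean and a dashed line at the limit of 4. Tenm3 and Flrt3 lie right of the limit in NCSC alone, Flrt2 is far brighter in MSC, Tenm4 overlaps between the groups, and Tenm1, Tenm2 and Flrt1 sit at 2.12 to 2.18 throughout.

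The regions around the transcription starts of the 3 genes whose groups did not overlap are shown because these members moved strongly and in different directions. Each runs 5′ to 3′ on the strand of the gene, from 250 bases before to 50 bases after the start, as given by RefSeq on GRCm38.p6. The regions are chr8:48674641-48674940 on the minus strand for Tenm3, chr2:140671427-140671726 on the minus strand for Flrt3 and chr12:95691976-95692275 on the plus strand for Flrt2. Capitals mark matches to 4 motifs searched on both strands.
Tenm3: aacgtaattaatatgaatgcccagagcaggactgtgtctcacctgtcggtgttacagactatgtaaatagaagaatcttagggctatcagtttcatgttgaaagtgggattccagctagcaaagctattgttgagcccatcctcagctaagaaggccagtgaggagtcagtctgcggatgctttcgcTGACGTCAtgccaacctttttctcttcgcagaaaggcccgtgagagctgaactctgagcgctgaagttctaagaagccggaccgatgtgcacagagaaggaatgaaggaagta
Flrt3: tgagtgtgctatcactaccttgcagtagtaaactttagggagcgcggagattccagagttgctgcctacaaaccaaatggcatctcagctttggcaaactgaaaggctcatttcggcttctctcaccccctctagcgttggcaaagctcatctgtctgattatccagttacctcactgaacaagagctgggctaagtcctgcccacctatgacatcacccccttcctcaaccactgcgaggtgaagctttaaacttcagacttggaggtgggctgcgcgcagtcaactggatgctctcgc
Flrt2: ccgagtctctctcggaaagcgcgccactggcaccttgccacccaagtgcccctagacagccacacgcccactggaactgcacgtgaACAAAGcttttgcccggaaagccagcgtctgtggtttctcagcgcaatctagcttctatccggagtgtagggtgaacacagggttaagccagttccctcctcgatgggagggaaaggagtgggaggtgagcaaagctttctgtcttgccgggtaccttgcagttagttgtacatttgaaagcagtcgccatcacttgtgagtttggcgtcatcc

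The motifs were the SOX core (ACAAAG or ACAATG), the cAMP response element (TGACGTCA), the AP-1 site (TGANTCA) and the TATA box (TATAAA), none of which overlapped another in these 3 regions. The Tenm3 region held the full cAMP response element from 63 bases before the start. Of 32851 promoter regions of this length 1.79% held one. The Flrt2 region held a SOX core from 164 bases before the start, as 28.6% of all regions held. The Flrt3 region matched none of the 4, and no AP-1 site (7.81% of all regions) or TATA box (13.6%) was found in the 3 regions. The share of G and C was 47.3% for Tenm3, 51.3% for Flrt3 and 55.3% for Flrt2, against a median of 52.7% over all regions, and the regions held 10, 8 and 14 CG dinucleotides against a median of 7. These matches are a description of the letters and carry no information on binding.

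Tenm3, on chromosome 8, encodes a teneurin known for matching neurons of visual and hippocampal circuits through like-to-like contacts. Its brighter probe set (1449315_at) read 2.12, 2.14 and 2.49 on the MSC arrays and 12.94, 13.15 and 13.25 on the NCSC arrays. All NCSC arrays were high and all MSC arrays lay under the limit. The means were 2.25 ± 0.21 (SD, n = 3) and 13.11 ± 0.16, and the fold in favour of NCSC was at least 553, a lower bound that sets dim arrays to the limit. The fitted difference was 10.86 ± 0.14 (SE) on the log2 scale, which placed Tenm3 at rank 6 from the top among 10501 tested genes. The other probe set (1429178_at) read 2.25, 2.53 and 2.22 in MSC and 11.74, 11.81 and 12.66 in NCSC. It gave a bound of 269-fold, again with no overlap. On NCSC 3 this probe set was 0.88 above the mean of the other NCSC arrays, while the brighter one was 0.21 above it.

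**Figure D2:**
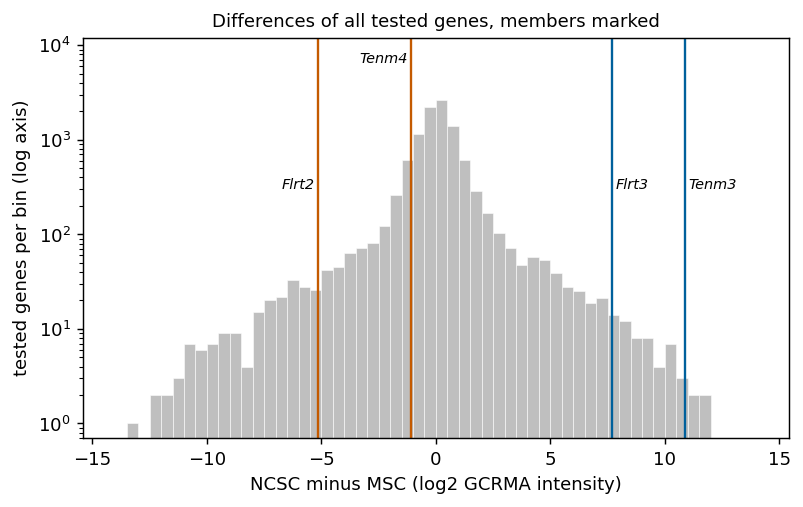
Number of tested genes (vertical, log axis) by difference in log2 GCRMA intensity, NCSC minus MSC (horizontal axis), for all 10501 genes, with vertical lines at the 4 tested members. Tenm3 (10.86) and Flrt3 (7.70) lie in the sparse right tail, Flrt2 (-5.15) in the left tail and Tenm4 (-1.09) beside the main peak.

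Tenm4, on chromosome 7, encodes a teneurin linked to myelination by oligodendrocytes and first described as a gene acting downstream of the stress factor CHOP. Only 1 of its 3 probe sets (1451888_a_at) was kept. It read 6.08, 4.21 and 6.02 on MSC 1, 2 and 3, and 3.996, 3.43 and 5.61 on NCSC 1, 2 and 3. The groups overlapped, since NCSC 3 was above MSC 2. The means were 5.44 ± 1.07 (SD, n = 3) in MSC and 4.35 ± 1.13 in NCSC, with a difference of -1.09 ± 0.73 (SE) and a 95% confidence interval of -2.87 to 0.69. The size of the difference depended on single arrays. It was -1.70 without MSC 2, -1.72 without NCSC 3 and -2.34 without both, and -0.63 without NCSC 2. A second probe set (1434530_at), just outside the filter with 2 arrays above the limit, read 5.33, 3.67 and 4.65 in MSC and 3.63, 2.45 and 3.96 in NCSC. The third (1455993_at) stayed between 2.63 and 2.98 on all arrays.

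No level above background was read for the other teneurins. Tenm1, on the X chromosome, has 2 probe sets, both at 2.12 on every array. Tenm2, on chromosome 11, has 4 probe sets, of which 2 were at 2.12 on every array. Of the other two, one read 2.18 on MSC 2 and the other 2.13 on NCSC 1, each at the floor elsewhere. Such values show that these transcripts were not detectable by these probe sets, not that they are absent.

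Flrt3, on chromosome 2, encodes the FLRT protein that binds latrophilins at synapses and acts in the early embryo with FGF signalling. Its brighter probe set (1429310_at) read 3.73, 3.36 and 3.21 in MSC and 11.11, 11.19 and 11.09 in NCSC. All MSC arrays were under the limit and all NCSC arrays were far above it. The means were 3.43 ± 0.27 (SD, n = 3) and 11.13 ± 0.054, for a fold of at least 140. The fitted difference was 7.70 ± 0.15 (SE), at rank 55 from the top. The second probe set (1453102_at), which was designed from the same transcript accession and is not independent evidence, read 3.23, 3.33 and 3.35 against 10.40, 10.35 and 10.36. Its bound was 82.8-fold. NCSC 3 did not stand apart for this gene, at -0.059 and -0.011 from the mean of the other NCSC arrays.

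Flrt2, on chromosome 12, encodes a FLRT protein whose shed ectodomain repels cells that carry UNC5 receptors, and which is also known from craniofacial mesenchyme and heart. Its brightest probe set (1455096_at) read 10.47, 11.01 and 10.46 in MSC and 4.99, 4.84 and 6.66 in NCSC. The groups did not overlap, and NCSC 3 was the highest of the NCSC arrays. The means were 10.64 ± 0.31 (SD, n = 3) and 5.49 ± 1.01, a difference of -5.15 ± 0.50 (SE) with a 95% confidence interval of -6.37 to -3.93, or 35.5-fold lower in NCSC. Without NCSC 3 the difference was -5.73. Probe set 1438702_at read 10.15, 10.83 and 10.05 against 4.86, 3.90 and 6.38, which is 39.4-fold lower. Probe set 1456874_at read 6.77, 8.03 and 7.56 against 2.82, 3.03 and 4.69, which is at least 9.33-fold lower. In all 3 probe sets NCSC 3 lay 1.74 to 2.00 above the mean of the other NCSC arrays. Over the whole list, mesenchymal markers summed to 75216 on NCSC 3, between the 79185 and 70727 of the other NCSC arrays. This sum of linear intensities is carried by the brightest genes. Of the mesenchymal markers called lower in NCSC, Pdgfra read 6.06, 6.28 and 6.96 on NCSC 1, 2 and 3. Cxcl12 was also highest on NCSC 3 (14.20, 14.16 and 14.36), whereas Vcam1 was not (8.65, 8.52 and 8.54). Neural crest markers summed to 27788 on NCSC 3, against 36376 and 30801. The part of either list in the Flrt2 value of NCSC 3 was not tested. Flrt1, on chromosome 19, was at 2.12 in both of its probe sets on all 6 arrays.

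**Figure D3:**
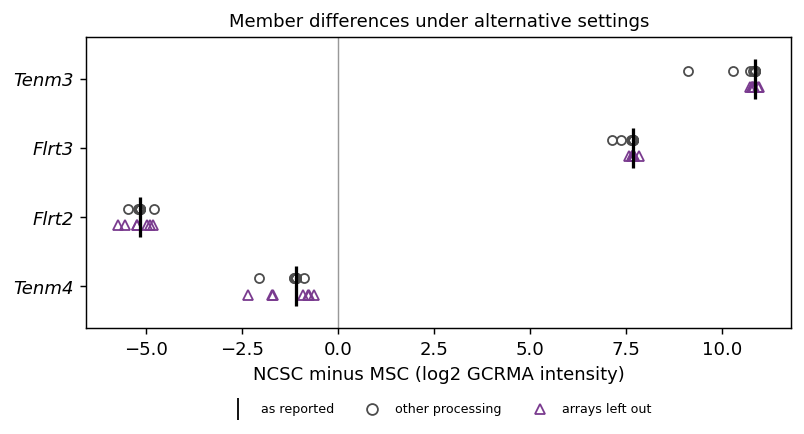
Difference in log2 GCRMA intensity, NCSC minus MSC (horizontal axis), of the 4 tested members as reported (black bars), under other processing (circles) and with arrays left out (triangles). Tenm3 ran from 9.11 to 10.98, Flrt3 from 7.13 to 7.84, Flrt2 from -5.73 to -4.80 and Tenm4 from -2.34 to -0.63, with no change of sign.

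The binding partners and processing enzymes of these proteins were tested in the same fit over 10501 genes. Their values were not used to choose the members, but the lists were drawn up with earlier results of these data known. Of 22 listed partners 20 were read here and 14 were tested, of which 5 rose and 6 fell in NCSC and 3 were not called. Among all tested genes 35.0% were called higher and 29.1% lower. The groups did not overlap for 12 of the 14, as for 71.2% of all tested genes. The median difference of the 14 was -0.15, against 0.056 for all tested genes. Adgrl3, Robo1 and Fgfr2 passed the filter through their brighter group alone. Their dim group lay under the limit with the smaller spread, which enters their p-values.

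**Figure D4:**
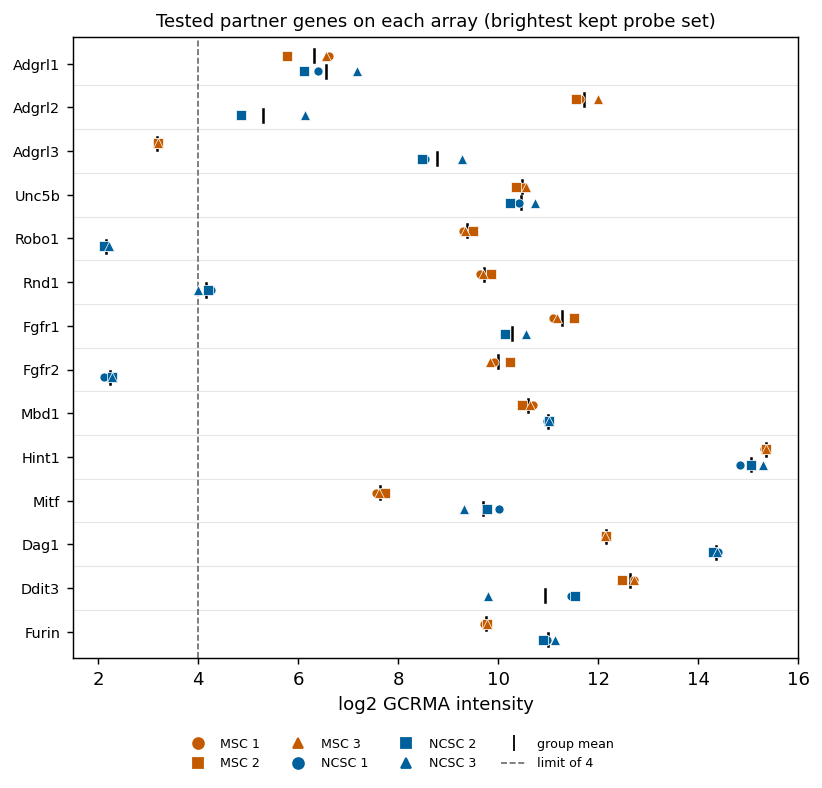
Log2 GCRMA intensity (horizontal axis) of the brightest kept probe set of the 14 tested partner genes, with a marker for each of the 3 MSC arrays (orange) and 3 NCSC arrays (blue), a black bar at each group mean and a dashed line at the limit of 4. Adgrl2, Robo1, Rnd1 and Fgfr2 are far brighter in MSC, Adgrl3 lies above the limit in NCSC alone, and Unc5b and Adgrl1 overlap.

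The latrophilins, receptors shared by teneurins and FLRT proteins, differed member by member. Adgrl3 read 3.18, 3.20 and 3.20 in MSC and 8.54, 8.48 and 9.29 in NCSC. It rose at least 27.3-fold (limma adjusted p = 5.38e-06). Its 4 kept probe sets of 6 all passed the filter through the NCSC arrays alone. Their shared direction was therefore set by the filter and is not independent evidence. Adgrl2 read 11.64, 11.55 and 11.99 in MSC and 4.86, 4.86 and 6.15 in NCSC. It fell by 6.43 ± 0.37 (SE) on the log2 scale (limma adjusted p = 2.73e-05) with NCSC 3 the highest NCSC array. That array was also the highest of the 3 for 46.9% of the 1465 genes called at least 2-fold lower in NCSC, Flrt2 among them. Adgrl2 and Flrt2 were thus both bright in MSC and dim in NCSC, and Adgrl3, Flrt3 and Tenm3 the reverse. Any correspondence between members and partners was not tested. Robo1 and Rnd1, described below as partners of Flrt3, fell in NCSC while Flrt3 rose. Adgrl1 was above the limit on all arrays in 1 of its 2 probe sets, at 6.32 ± 0.48 (SD, n = 3) and 6.57 ± 0.54. The other (1452812_at) stayed at 2.12 to 2.13. Its difference of 0.25 was not called (limma adjusted p = 0.556, 95% confidence interval -0.59 to 1.08), and it was -0.33 without MSC 2 and NCSC 3.

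Among receptors that FLRT proteins bind, Unc5b, a netrin receptor that also acts in vessels, was bright in both cell types, and its groups overlapped. Its arrays read 10.51, 10.36 and 10.55 in MSC and 10.41, 10.24 and 10.74 in NCSC, with a difference of -0.012 and a 95% confidence interval of -0.37 to 0.34 (limma adjusted p = 0.951). Unc5a and Unc5d were at the floor on all arrays, and Unc5c was above 2.12 on MSC 2 alone, under the limit. The Slit receptor Robo1, which can pair with Flrt3 in axon guidance, read 9.29, 9.49 and 9.34 in MSC and 2.12, 2.12 and 2.23 in NCSC, and fell at least 41.5-fold (limma adjusted p = 3.53e-08). This fall was read by 1 of its 3 probe sets, and the others stayed at 2.12 to 2.19 on all arrays, MSC included. The small GTPase Rnd1, known to act with Flrt3 on cadherin adhesion in the frog embryo, fell from 9.73 ± 0.11 (SD, n = 3) to 4.16 ± 0.13, a difference of -5.57 ± 0.11 (SE; limma adjusted p = 2.16e-07).

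Both tested FGF receptors fell in NCSC. Fgfr2 read 9.91, 10.23 and 9.85 in MSC and 2.12, 2.29 and 2.29 in NCSC, at least 63.8-fold lower (limma adjusted p = 1.15e-07). Its other kept probe set (1420847_a_at) was dimmer in MSC, at 6.55, 6.71 and 6.60, with a bound of 6.14-fold. The remaining one (1443211_at) stayed at 2.12 to 2.13 on all arrays. Fgfr1, the receptor that FLRT proteins are known to assist, was bright in both and fell by 0.99 ± 0.17 (SE) on the log2 scale (limma adjusted p = 0.00295), with the same direction in its other two kept probe sets. Fgfr3 was at the constant value 3.10 on all arrays in its brighter probe set, and Fgfr4 did not exceed 2.14.

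Of 9 genes for intracellular partners, the matrix side and cleavage of teneurins, 6 were tested. Dystroglycan (Dag1), the laminin receptor reported to associate with a teneurin-derived peptide, read 12.14, 12.16 and 12.15 in MSC and 14.39, 14.30 and 14.37 in NCSC, and rose by 2.20 ± 0.072 (SE; limma adjusted p = 2.15e-06). The pigment cell factor Mitf, which the intracellular part of Tenm1 can activate, rose by 2.07 ± 0.18 (adjusted p = 0.000167). Its other kept probe set rose less, by 0.82 (adjusted p = 0.00771 over probe sets). Furin, the protease that cuts teneurins on their way to the surface, rose by 1.24 ± 0.089 (adjusted p = 7.02e-05). Mbd1, a methyl-DNA binding protein that binds the intracellular part of Tenm1, rose by 0.40 ± 0.088 (adjusted p = 0.00791), while its other kept probe set was not called (adjusted p = 0.181 over probe sets). Ddit3, the gene of CHOP, fell by 1.70 ± 0.46, from 12.63 ± 0.13 (SD, n = 3) to 10.93 ± 0.98, with NCSC 3 the lowest at 9.80 (adjusted p = 0.0186). That call was lost without MSC 1 or MSC 3 (adjusted p = 0.0587 and 0.0588) and without the filter (0.0881, range 0.000252 to 0.0881 over the alternatives). Hint1, a partner of Mitf, was at 15.35 and 15.06 (difference -0.29, adjusted p = 0.0863). In 4 of 17 alternatives it was called lower (adjusted p range 0.0046 to 0.22 over all). These were without NCSC 3 (0.0116), without MSC 2 and NCSC 3 together (0.0193), with array weights (0.0046) and with limma's trend and robust options (0.0445). Zic1 was at the floor on all arrays, and Ptk2 was not analysed here.

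Other adhesion proteins of neurons were mostly not above background. Of 24 leucine-rich repeat genes (the Lrrtm, Slitrk, Lrrc4, Lrrn, Lingo and Amigo families) and 6 neurexins and neuroligins, 27 had a probe set and 6 were tested, with 2 higher, 2 lower and 2 not called, where 35.0% of all tested genes were called higher and 29.1% lower. Slitrk6, a neurite regulator of the inner ear, rose at least 45.3-fold, from 2.64 ± 0.19 (SD, n = 3) to 9.50 ± 0.14 (limma adjusted p = 2.13e-07). Lingo3 rose at least 6.79-fold (adjusted p = 0.00316), with NCSC 3 the dimmest of its group at 5.34 against 7.64 and 7.31. Slitrk6 and Lingo3 passed the filter through NCSC alone. Lrrn3 was at least 7.95-fold lower (adjusted p = 0.000686). Nrxn3 differed by -1.72 on the log2 scale (adjusted p = 0.0364, range 0.0265 to 0.142 over the alternatives). With dim values set to the limit, its difference was -1.15 and was not called (adjusted p = 0.0535). The call was also lost without MSC 2 (difference -1.23, adjusted p = 0.0904), MSC 3 (-1.85, 0.0727), NCSC 2 (-1.30, 0.107) or NCSC 3 (-1.76, 0.0741), without MSC 2 and NCSC 3 together (-1.27, 0.122), without the filter (0.142) and with the replicate block (0.083).

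The genes whose profiles were nearest to a member were found by Euclidean distance over the 6 arrays between log2 values centred on the mean of each gene. The same 6 libraries underlie every distance. For Tenm3 they were Cadm1 (distance 0.47), an immunoglobulin adhesion molecule, the glial cadherin Cdh19 (0.78) and the stem cell factor Sox2 (0.78). Their MSC means were 2.44, 2.15 and 2.12, all under the limit. For Flrt3 they were Ctsw (0.41), Tmem200c (0.45) and Atp6v0e2 (0.45), all with MSC means under the limit. For Flrt2 they were the ETS factor Fli1 (0.43), Hoxc13 (0.60) and the mesenchymal cadherin Cdh11 (0.73). For Tenm4 the nearest were farther, Recql4 (0.74), Cep295 (0.97) and Exo1 (1.04), which are known for DNA repair or the centrosome.

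Of the genes that overlap a member or lie next to it on the chromosome, 10 were tested. Of these, 1 was called higher, 3 were called lower and 6 were not called. Over all tested genes, 35.0% were called higher and 29.1% lower. Values are given for the called neighbours and for those that contain a member. The 5 flanking genes that were not called differed by 0.049 to 0.53. Flrt3 lies inside Macrod2 and Flrt1 inside Macrod1, in the RefSeq annotation of GRCm38.p6. Macrod2, an ADP-ribose hydrolase, rose by 0.85 ± 0.15 (SE; limma adjusted p = 0.00288), from 6.88 to 7.73, where Flrt3 differed by 7.70. Macrod1 was above the limit on all arrays, at 9.15 and 9.50 (adjusted p = 0.159), around a Flrt1 at the floor, and was called higher without NCSC 3 (difference 0.57, adjusted p = 0.0023). Next to Tenm3, the deoxycytidylate deaminase gene Dctd fell by 6.02 ± 0.50 (adjusted p = 0.000124), from 10.36 ± 0.22 (SD, n = 3) to 4.35 ± 1.03, and on the other side the lysosomal gene Aga fell by 0.64 ± 0.14 (adjusted p = 0.00696). Next to Tenm2, Mat2b, a regulatory subunit of methionine adenosyltransferase, fell by 0.48 ± 0.07 (adjusted p = 0.00143).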

How the data were processed

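Arrays of 3 MSC and 3 NCSC samples were read from the table of all 6. The values deposited by the authors are linear intensities, 1 per probe set, computed with GCRMA according to the submitters' processing notes. Values ran from 4.36 to 116597 and were taken to log2 with no further normalization. Array number limits the precision. Of 45101 probe sets 34945 were annotated to 1 gene, with symbols updated through RefSeq. Probe sets over 4 on at least 3 arrays were kept, and the brightest stood for its gene. NCSC minus MSC was fitted by lmFit and eBayes of limma 3.58.1 (R 4.3.3; two-sided, no covariate), adjusted by Benjamini-Hochberg over 10501 genes, or over 18640 probe sets for single probe sets, and tested on simulated data. Where the dimmer mean was at or under 4, the fold is a lower bound with dim values set to 4. The members, lists and motifs were chosen with earlier results of these data known. Named genes were all members and partners, the 2 called related adhesion genes highest and lowest in difference, and the 3 nearest profiles per member, passing over predicted genes. Neighbours and motifs were added later. One listed partner is not reported here. Alternatives covered the limit (3 or 5), filter, floor, probe set summary, normalization, fit options, a replicate block and arrays left out, where 2 arrays over the limit sufficed. Same-numbered MSC and NCSC arrays had deviations correlated at -0.098, 0.062 and 0.073, so the numbers were not taken as pairs.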

Additional observations from a re-analysis of the deposited data

How the results depend on the processing

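Across 17 alternatives the number of called genes ran from 5709 to 8104 (6731 as reported), of members from 3 to 4, of partners from 10 to 12 and of related adhesion genes from 3 to 4. Tenm4 was the added member, with array weights and without MSC 2 and NCSC 3. Adgrl1, not called in any alternative, changed sign with array weights (-0.20), without MSC 2 (-0.029), without NCSC 3 (-0.058) and without both (-0.33), and with 1 array left out it ran from -0.058 to 0.47. Unc5b, also never called, was 0.0058 without MSC 1, 0.028 without MSC 3, 0.015 without NCSC 1 and 0.10 without NCSC 2, in a range of -0.15 to 0.10 with 1 array left out. The causes were not tested. The replicate block gave 6257 called genes, 3 members, 11 partners and 3 related adhesion genes. The floor of the deposited values limits every fold against a dim group.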
